A study of Gossypium hirsutum with 63 samples.

Results

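The leaf transcriptome of the high hybrid (H) was compared with that of the low hybrid (L) in upland cotton, Gossypium hirsutum, an allotetraploid that carries an A and a D subgenome. The words high and low refer to the level of yield heterosis for which the study chose these F1 hybrids. The comparison rests on 6 of the 63 libraries of the series, 3 of H leaf and 3 of L leaf, and the groups were taken from the sample labels. H (genotype SJ48x98-15) and L (genotype SJ48xT-8) have the same mother, the inbred line SJ48 (A), and differ in their fathers, Z98-15 (B) for H and DT-8 (D) for L. The names of the crosses are spelled as in the sample labels, which drop the first character of each paternal strain. The paternal lines are represented by 3 leaf libraries each, and the differences between H and L were set beside those between B and D. Another hybrid of the same mother, M (SJ48x51-2), and its father 851-2 (C) entered the same fit, so that 21 leaf libraries of 7 genotypes shared 1 estimate of the spread. All plants were grown in the field and sampled at the squaring stage, the start of reproductive growth, and each leaf sample was a pool of young leaves from different plants. The hybrids and their parents differ over whole genomes, so no difference below can be assigned to a single locus, and in pooled leaves fewer cells of a type and less RNA per cell cannot be told apart.

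Heterosis is the advantage of an F1 hybrid over its parents. Each hybrid holds 1 allele from the mother and 1 from the father at every locus. Hybrids of a common mother therefore have the maternal allele in common, and an allele with cis-acting expression differences that sits in only 1 father can reach only 1 of the hybrids. Genes can also change in a hybrid through trans-acting factors, physiology or growth stage, and then the fathers need not differ. Leaves at squaring supply sugar to the young flower buds while chloroplast genes, cell division and cell wall genes are still active in the youngest blades.

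The unit of all values was FPKM, sequenced fragments scaled to the length of the transcript and to the mapped fragments of the library, as deposited. Total FPKM was 426000 to 440070 in H leaf and 438150 to 449250 in L leaf. Between 59400 and 59967 loci had a value above 0 in H libraries and between 59932 and 61022 in L libraries. Over the 60031 genes above 0.5 FPKM in at least 1 leaf library, Pearson's r of log2(FPKM + 1) was 0.921 to 0.935 between libraries of 1 hybrid and 0.901 to 0.915 between H and L libraries, given as a description across genes. The first principal component of the 6 libraries held 29.9% of the variance and placed H at 39.7 to 62.2 and L at -57.9 to -43.6. Leaf marker genes (Rubisco small subunit, light-harvesting proteins and photosystem I subunits) were abundant in both, with a summed level of 7984 to 9947 FPKM in H and 9194 to 12019 FPKM in L. Read counts were not used here, so the counting error of a single gene is unknown.

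In leaf, 296 genes were called between H and L, that is, had a Benjamini-Hochberg adjusted p under 0.05 in limma and moved by more than 1 on the log2(FPKM + 1) scale. They make up 0.493% of the genes tested. In H, 68 were higher (0.113%) and 228 were lower (0.38%) than in L. The H and L libraries did not overlap for any of the 296, as was true of 24.5% of all genes tested. The count of lower genes moved by more than 1.5 times on leaving out 1 library: 142 were lower without H replicate 2 and 149 without H replicate 3. With each of the 6 libraries left out in turn, 131 of the 296 genes were called every time, 36 of the 68 higher and 95 of the 228 lower. The median standard error of H minus L over the genes tested was 0.19 on the log2 scale. At the thresholds of the study, an unadjusted p under 0.05 with the same size of change, 908 genes passed (1.51%), of which 241 were higher and 667 lower in H. A description was given for 111 of the 296, and 145 (49.0%) were assembled loci with no gene name, against 21.3% of the genes tested. The A subgenome held 77 called genes of 22422 tested (0.343%) and the D subgenome 70 of 23220 (0.301%).

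The fathers differed in more genes than the hybrids. Between B and D, 1094 genes were called (1.82%), 250 higher and 844 lower in B. The count was 687 without B replicate 2 and 660 without D replicate 2. Of the 296 genes of the hybrids, 177 were called between the fathers on the same side, 42 higher in H and B and 135 lower in H and B. This is 59.8% of the hybrid list and 16.2% of the paternal list. Both contrasts use different libraries but share the residual variance of the fit, and the overlap was not tested. Only 1 gene, the unnamed locus MSTRG.47098, was called on opposite sides. Its values were 3.15, 1.65 and 3.54 FPKM in H against 8.38, 8.08 and 9.58 FPKM in L, and 4.75, 4.59 and 4.39 FPKM in B against 1.29, 2.27 and 1.69 FPKM in D. The mother had 11.3, 15.0 and 7.46 FPKM, and the call was lost without H replicate 2 (limma adjusted p = 0.060).

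Among the 1094 genes called between the fathers, H minus L had the sign of B minus D in 994 (90.9%), against 56.4% of all genes tested. On the FPKM scale the hybrid difference divided by 0.5 of the paternal difference had a median of 0.912 over these genes, with quartiles of 0.516 and 1.29. A value of 1 is what additive inheritance of 1 paternal allele would give. The median was 0.769 for genes higher in B and 0.951 for genes lower in B. Pearson's r of the 2 log2 differences was 0.751 over the 1094 genes and 0.213 over all genes tested, as a description across genes. The median log2 difference of all genes was -0.01 for H minus L and -0.07 for B minus D.

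**Figure D1:**
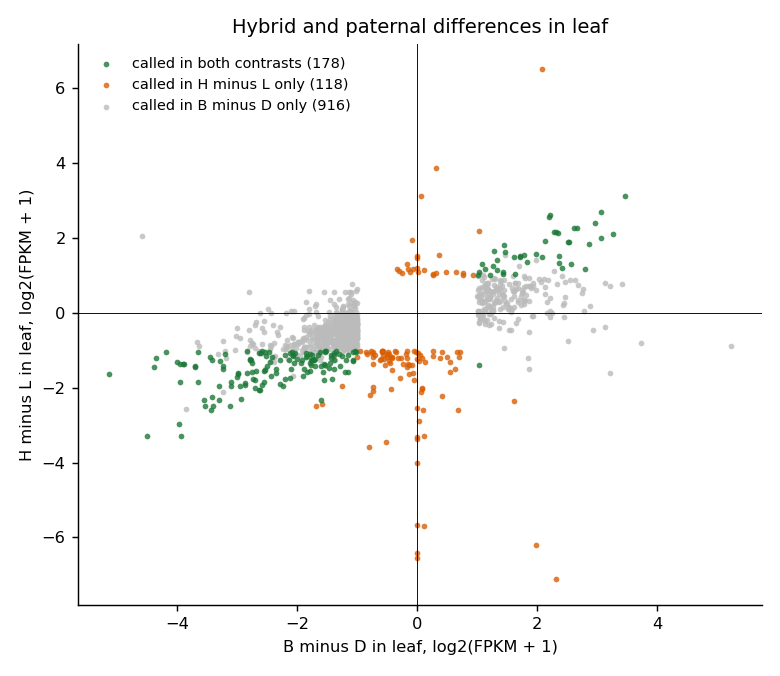
Each point is a leaf gene called in at least 1 contrast, with B minus D on the horizontal axis and H minus L on the vertical axis, both as differences of log2(FPKM + 1). Green points were called in both contrasts and 177 of them lie in the quadrants where both differences have the same sign, orange points were called in H minus L only and spread around 0 on the paternal axis, and grey points were called in B minus D only.

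Genes higher in H with a like difference in the fathers included several with housekeeping roles. Gh_A10G1959 encodes a protein with the conserved Kin17 region, a domain of nuclear proteins that bind DNA and RNA. It had 3.52, 4.24 and 4.37 FPKM in H against 0.793, 0.551 and 0 FPKM in L, and 6.68, 8.90 and 8.78 FPKM in B against 0, 0.436 and 0.360 FPKM in D. The mother stood with D at 0.302, 0 and 0.421 FPKM, so H lay near the mean of its parents. The fold of the means was 9.02 between H and L (log2 difference 1.84, SE 0.21, limma adjusted p = 0.000114). Gh_A13G1727 at locus MSTRG.19214, an SNF7 family protein of the complex that sorts membrane proteins at endosomes, had 2.00, 1.88 and 2.55 FPKM in H against 0.0248, 0.191 and 0.103 FPKM in L, with 3.22, 3.73 and 3.86 FPKM in B against 0.0401, 0.119 and 0.0823 FPKM in D (fold of the means 20.2, limma adjusted p = 4.34e-07). M and its father C were high as well, at 1.90 to 2.05 and 4.34 to 5.15 FPKM. The v-SNARE locus Gh_D12G1624;Gh_D12G1625, whose proteins drive vesicle fusion, had 6.74, 10.7 and 12.7 FPKM in H against 3.60, 2.50 and 2.55 FPKM in L, and Gh_D08G0495, a RAN GTPase activating protein of nuclear transport, had 6.91, 10.3 and 9.45 FPKM in H against 2.68, 2.85 and 3.05 FPKM in L.

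A pair of aminotransferase genes was present in H and B and at or near 0 in L, D and A. Gh_D03G0742, a D-amino acid aminotransferase-like enzyme, had 1.86, 1.57 and 1.94 FPKM in H and was listed at 0 in all 3 L libraries, with 2.81, 1.21 and 2.40 FPKM in B and 0 in all 3 D libraries. Gh_D10G0650, annotated as an alanine aminotransferase, had 1.82, 1.49 and 0.901 FPKM in H against 0.0121, 0 and 0 FPKM in L. Gh_A03G1803, a glycine-rich protein 2B, had 2.23, 4.38 and 3.09 FPKM in H against 0.530, 0.288 and 0.460 FPKM in L, with 2.88, 4.35 and 4.73 FPKM in B against 1.04, 0.129 and 0.279 FPKM in D. In each of the 3 genes the lowest library of H stood above the highest library of L. This does not single them out, since H and L did not overlap in any of the 296 called genes or in 24.5% of all genes tested.

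Gh_D09G1256 encodes subunit A10 of nuclear factor Y, the DNA-contacting subunit of a trimeric factor that binds CCAAT promoter boxes. It had 9.92, 7.74 and 7.79 FPKM in H against 3.55, 2.66 and 2.41 FPKM in L, and 11, 5.13 and 7.29 FPKM in B against 2.26, 3.12 and 3.82 FPKM in D. The mother, M and C all stayed at 1.71 to 2.84 FPKM (log2 difference of H and L 1.29, SE 0.21, limma adjusted p = 0.00446). Gh_D10G2297, a thaumatin of the pathogenesis-related PR-5 family, had 4.52, 5.97 and 5.88 FPKM in H against 0.188, 0 and 0 FPKM in L. The father B had 6.05, 7.80 and 7.0 FPKM against 0, 3.94 and 0 FPKM in D, whose libraries disagreed with each other. Its call between H and L (limma adjusted p = 0.0394) was lost with any of the 6 libraries left out, at adjusted p of 0.088 to 0.137.

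Lower in H with the fathers was the larger group, and the clearest of it was Gh_A09G0220, an EXS domain protein of the family that holds the phosphate exporter PHO1. It had 0.0768, 0.0351 and 0.0763 FPKM in H against 9.81, 9.75 and 8.62 FPKM in L, and 0.0218, 0.0656 and 0.0695 FPKM in B against 12.8, 19.3 and 13.6 FPKM in D. The mother was as low as B, at 0.0137 to 0.0923 FPKM, and of the parents of L only DT-8 was above 0.1 FPKM (log2 difference of H and L -3.29, SE 0.13, limma adjusted p = 8.25e-11). Gh_D12G2009 at locus MSTRG.37750 encodes a 9-cis-epoxycarotenoid dioxygenase 4, a carotenoid-cleaving enzyme related to those that make the precursor of abscisic acid. Its values were 1.45, 1.08 and 1.09 FPKM in H against 7.69, 7.05 and 7.87 FPKM in L, and 0.101, 0.0978 and 0.0452 FPKM in B against 12, 9.36 and 8.06 FPKM in D. H stood above both of its parents, whose highest library had 0.206 FPKM. The difference between the hybrids was smaller than that between the fathers on the log2 scale, by 1.35 (SE 0.22, limma adjusted p = 0.00827).

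Other genes lower in H and in B included enzymes and transcription factors. The aldehyde dehydrogenase 7B4 locus Gh_A06G1257;Gh_A06G1256, of an enzyme that clears reactive aldehydes under stress, had 5.85, 4.60 and 5.38 FPKM in H against 19.3, 20.2 and 19.6 FPKM in L, and 4.26, 4.47 and 3.64 FPKM in B against 21.1, 21.9 and 20.7 FPKM in D (log2 difference of H and L -1.73, SE 0.12, limma adjusted p = 2.20e-07). Terpene synthase 21 at Gh_A04G0198 (locus MSTRG.3999) had 9.85, 12.9 and 11.5 FPKM in H against 22.9, 34.8 and 35.0 FPKM in L, with 73.4, 65.9 and 47.5 FPKM in D, so that L lay between its parents. Gh_A07G1738, subunit B3 of nuclear factor Y, whose Arabidopsis relatives act in the photoperiod control of flowering, had 7.52, 7.28 and 5.96 FPKM in H against 20.7, 19.8 and 19.7 FPKM in L. AGAMOUS-like 20 at Gh_D11G0883, the MADS-box floral integrator known in Arabidopsis as SOC1, had 8.42, 7.27 and 6.0 FPKM in H against 22.1, 17.7 and 15.9 FPKM in L, and 3.17, 2.28 and 2.68 FPKM in B against 9.11, 10.8 and 14.4 FPKM in D (log2 difference of H and L -1.25, SE 0.18, limma adjusted p = 0.00143). The other 7 AGAMOUS-like 20 loci tested were not called, with log2 differences of -0.52 to 0.04. The genes Gh_A06G1257;Gh_A06G1256 and Gh_A07G1738 were picked as examples after their values were seen.

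Among cell wall genes, cellulose synthase A4, a catalytic subunit of secondary wall cellulose synthesis, was called lower in H at 1 of 5 loci tested. The uncalled locus Gh_A08G0421 (MSTRG.10168) had a log2 difference of -0.69 (limma adjusted p = 0.0477), and 1 of the 5 loci had a positive difference. Gh_D08G0509 had 5.26, 5.58 and 5.66 FPKM in H against 9.51, 13.7 and 14.1 FPKM in L, and 4.92, 5.03 and 5.33 FPKM in B against 12.1, 12.5 and 8.39 FPKM in D. The paternal difference of -0.96 had a limma adjusted p of 0.00396 but did not reach the size for a call. The call between H and L (log2 difference -1.03, SE 0.17) was lost without L replicate 2 or L replicate 3. A pair of laccases, oxidases that polymerise lignin, showed a like pattern: Gh_D11G3322 had 6.61, 9.04 and 7.24 FPKM in H against 12.7, 21.5 and 22.0 FPKM in L, and 4.84, 8.61 and 7.41 FPKM in B against 35.4, 33.2 and 27.2 FPKM in D. Its call was lost without H replicate 1, H replicate 3, L replicate 2 or L replicate 3, at limma adjusted p of 0.080 to 0.103, and that of Gh_A11G2936 in all leave-outs but that of L replicate 1. Fasciclin-like arabinogalactan protein 7 (Gh_D08G0544), a wall glycoprotein picked after its values were seen, had 1.70, 1.55 and 2.64 FPKM in H against 5.27, 7.25 and 5.48 FPKM in L and kept its call in every leave-out.

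**Figure D2:**
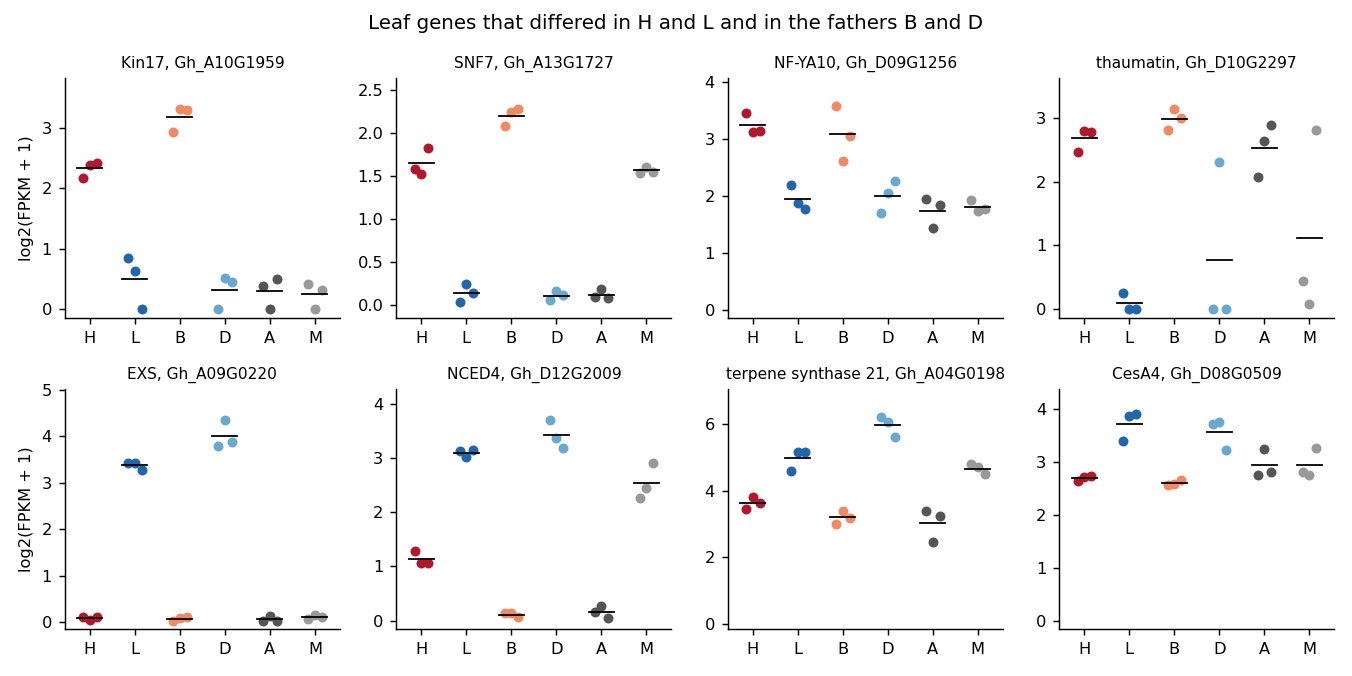
Points are single leaf libraries and bars are group means on the log2(FPKM + 1) scale (vertical axis), for 8 genes of the hybrids H and L, their fathers B and D, the mother A and the hybrid M. In the upper row H and B stand above L and D, and in the lower row they stand below, while the thaumatin gene has 1 of 3 D libraries and 1 of 3 M libraries near the level of B.

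Of the remaining called genes, 73 had a paternal log2 difference under 0.5 (20 higher and 53 lower in H) and 45 had a larger one that was not called (6 higher and 39 lower). They were less stable to the removal of libraries as a group: 28 of the 119 not shared with the fathers were called in all 6 leave-outs, against 103 of the 177 shared, and this difference was not tested. Among the 53 lower genes with like fathers, all 3 L libraries lay above every library of A and D in 22 (41.5%), and all 3 H libraries lay below every library of A and B in 5. Over all genes tested L stood above both parents in 1.88% and H below both in 0.993%. Among the 20 higher genes with like fathers, L lay below both parents in 7 (35%) and H above both in 5 (25%). Over all genes tested these shares were 1.61% and 1.55%. Because H minus L chose these genes, the shares are a description.

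The A-subgenome copy of magnesium-protoporphyrin IX methyltransferase, Gh_A07G0409, an enzyme of chlorophyll synthesis, had 0.794, 1.3 and 1.02 FPKM in H against 119, 92.9 and 104 FPKM in L. B, D, A and C all stayed at 0.384 to 1.27 FPKM, so both parents of L were near the level of H (log2 difference -5.70, SE 1.01, limma adjusted p = 0.00886). The D-subgenome locus Gh_D07G0473;Gh_D07G0474, which is merged with a histone gene, had 52.9, 47.6 and 2.83 FPKM in H against 5.48, 9.36 and 42.9 FPKM in L and split in the same way in D, M and C. How reads were shared between such near-identical copies is not known, so both values are uncertain. This locus and the other uncalled copies given here were picked, after values were seen, for sharing the annotation of a called gene. Those copies are Gh_D10G0283, Gh_D10G2321, Gh_D11G0303, Gh_D11G2090, Gh_D04G0378 and Gh_A08G0421. Subunit I2 of magnesium chelatase, which inserts magnesium into protoporphyrin, had 4.02, 4.02 and 4.24 FPKM in H against 18.5, 15.2 and 25.6 FPKM in L at Gh_A06G1826 (limma adjusted p = 0.00982). Its abundant copy Gh_D10G0283 had 85.6, 73.4 and 78.1 FPKM in H against 80.2, 55.9 and 65.7 FPKM in L, and the sum over the 3 loci averaged 83.6 FPKM in H and 89.4 FPKM in L. The list of chlorophyll synthesis genes had these 2 called members of 35, both lower in H, while its median log2 difference was 0.19 with 65.7% of its members higher in H, so the median and the called members differ in sign.

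In M the same genes fell apart by library. Gh_A07G0409 had 0.556, 0.748 and 106 FPKM in M replicates 1, 2 and 3, and Gh_A06G1826 had 4.35, 3.89 and 15.9 FPKM. The locus Gh_D05G0331;Gh_D05G0332, of a BREVIS RADIX-like gene and photosystem II subunit X, had 2.24, 2.69 and 2.15 FPKM in H against 37.6, 29.2 and 30.4 FPKM in L, and 2.49, 2.32 and 37.2 FPKM in M. A myb-like factor, Gh_D11G3260, had 3.33, 3.34 and 3.93 FPKM in H against 17.1, 20.5 and 18.7 FPKM in L, and 3.70, 4.29 and 16.1 FPKM in M. In 8 of the 119 genes not shared with the fathers M replicate 3 alone was on the side of L by more than 1 log2 unit, while M replicate 1 was alone in 3 and M replicate 2 in 1. No such gene was among the 177 shared. In 17 of the 119, against 2 of the 177, some other genotype held libraries more than 2 log2 units apart on both sides of the midpoint of H and L. What these splits between libraries of 1 genotype contribute to the differences of H and L was not tested.

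Proline synthesis showed a difference in which L stood apart with A, the mother it shares with H and M. Gh_D01G2158 encodes delta 1-pyrroline-5-carboxylate synthase 2, the first enzyme of proline synthesis from glutamate. It had 2.57, 1.38 and 2.83 FPKM in H against 15.9, 22.0 and 18.1 FPKM in L, and 4.34, 2.64 and 2.95 FPKM in B against 2.45, 2.54 and 4.17 FPKM in D. The mother was high and variable at 8.49, 16.2 and 5.78 FPKM, while M had 1.68 to 3.17 FPKM (log2 difference of H and L -2.61, SE 0.30, limma adjusted p = 0.000119). Its A-subgenome partner Gh_A01G1899, picked after its values were seen, had 1.3, 1.16 and 1.20 FPKM in H against 5.30, 6.84 and 8.25 FPKM in L, with the mother at 5.49, 3.11 and 2.28 FPKM. The locus Gh_D10G2321, the most abundant of the 4 loci tested in H but not in L, had 10.5, 11 and 10.3 FPKM in H against 10.3, 9.98 and 10.3 FPKM in L. The sum over the 4 loci averaged 14.5 FPKM in H, 36.4 FPKM in L and 25.6 FPKM in A. 

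Cation exchanger 3, a vacuolar transporter that exchanges calcium for protons, had negative differences at all 8 loci tested, with 3 called. Gh_A09G1537 had 29.8, 31.2 and 35.2 FPKM in H against 68.5, 81.3 and 72.1 FPKM in L, while the fathers ran the other way at 60.8, 50.8 and 63.8 FPKM in B against 37.7, 41.5 and 44.2 FPKM in D. The mother had 76.9, 80.9 and 51.1 FPKM (log2 difference of H and L -1.18, SE 0.18, limma adjusted p = 0.00237). H minus L differed from B minus D by -1.67 (limma adjusted p = 0.00514). Gh_D09G1556 had 24.8, 25.7 and 30.0 FPKM in H against 62.6, 76.1 and 65.3 FPKM in L, with 52.6, 49.4 and 58.0 FPKM in B against 31.2, 35.4 and 42.9 FPKM in D. The called locus Gh_A01G1969 was lost in each of the 6 leave-outs, at limma adjusted p of 0.060 to 0.157. Summed over the 8 loci, the means were 79.8 FPKM in H, 177 FPKM in L and 174 FPKM in A. These 3 loci were picked after their values were seen.

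Redox genes moved in both directions. NADPH-dependent thioredoxin reductase A at Gh_A11G2988, which reduces cytosolic and mitochondrial thioredoxins, had 26.9, 32.9 and 32.6 FPKM in H against 3.18, 3.36 and 1.68 FPKM in L. The libraries of all other genotypes had 13.2 to 37.2 FPKM, with 26.9, 35.7 and 33.2 FPKM in B against 36.5, 27.9 and 27.7 FPKM in D and 19.4 to 31.3 FPKM in A, so L was below both of its parents (log2 difference of H and L 3.11, SE 0.26, limma adjusted p = 1.75e-06). The D-subgenome copy Gh_D11G0303 had 15.9, 19.9 and 18.4 FPKM in H against 12.8, 11.8 and 14.5 FPKM in L and was not called. Monodehydroascorbate reductase 4 (Gh_D10G0844), which regenerates ascorbate and was picked after its values were seen, had 6.71, 8.01 and 6.36 FPKM in H against 26.8, 22.9 and 21.3 FPKM in L, with M at 7.88, 6.30 and 21.5 FPKM. Antioxidant enzymes as a list had 1 member higher and 3 lower in H of 265 tested, and a median difference of 0.

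Several genes were listed at 0 in every leaf library but those of L. Gh_D01G2034, a thioredoxin superfamily protein, had 97.4, 87.6 and 92.0 FPKM in L and was listed at 0 in all 3 libraries of H, B, D, A, M and C. Gh_A07G0235, a lipid-transfer family protein, had 124, 72.7 and 68.1 FPKM in L, and Gh_D05G1002, a pentatricopeptide repeat protein of the family that edits and processes organelle RNA, had 8.32, 9.02 and 10.7 FPKM in L, both with the same zeros elsewhere. A zero in a table without counts may be a failed estimate: 733 genes tested (1.22%), among them 22 ribosomal protein genes, were listed at 0 in 1 library and at 10 FPKM or more in another of the same genotype. Gh_A09G0764, a germin-like protein, was listed at 0 in H against 189, 122 and 115 FPKM in L, and stood at 0, 120 and 0 FPKM in B and 0, 0 and 140 FPKM in M. Its call was lost in each of the 6 leave-outs. In the other direction Gh_D11G2612, a pyridoxal-dependent decarboxylase, had 66.2, 112 and 95.8 FPKM in H and was listed at 0 in L, with 0, 100 and 87.2 FPKM in D and 0, 0 and 74.1 FPKM in M, and its call was likewise lost in each leave-out. No ratio of H to L is given for these genes, since 1 hybrid was at 0.

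Over all genes, 72 were at or under 0.1 FPKM in the 3 H libraries and at 1 FPKM or more in the 3 L libraries, and 40 of them were called. The reverse held for 22 genes, of which 13 were called. Of the 72, 29 were at 1 FPKM or more in all 3 D libraries, and of the 22, 12 were so in all 3 B libraries. All of A, B and D were at or under 0.1 FPKM in 5 of the 72 and in 1 of the 22.

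**Figure D3:**
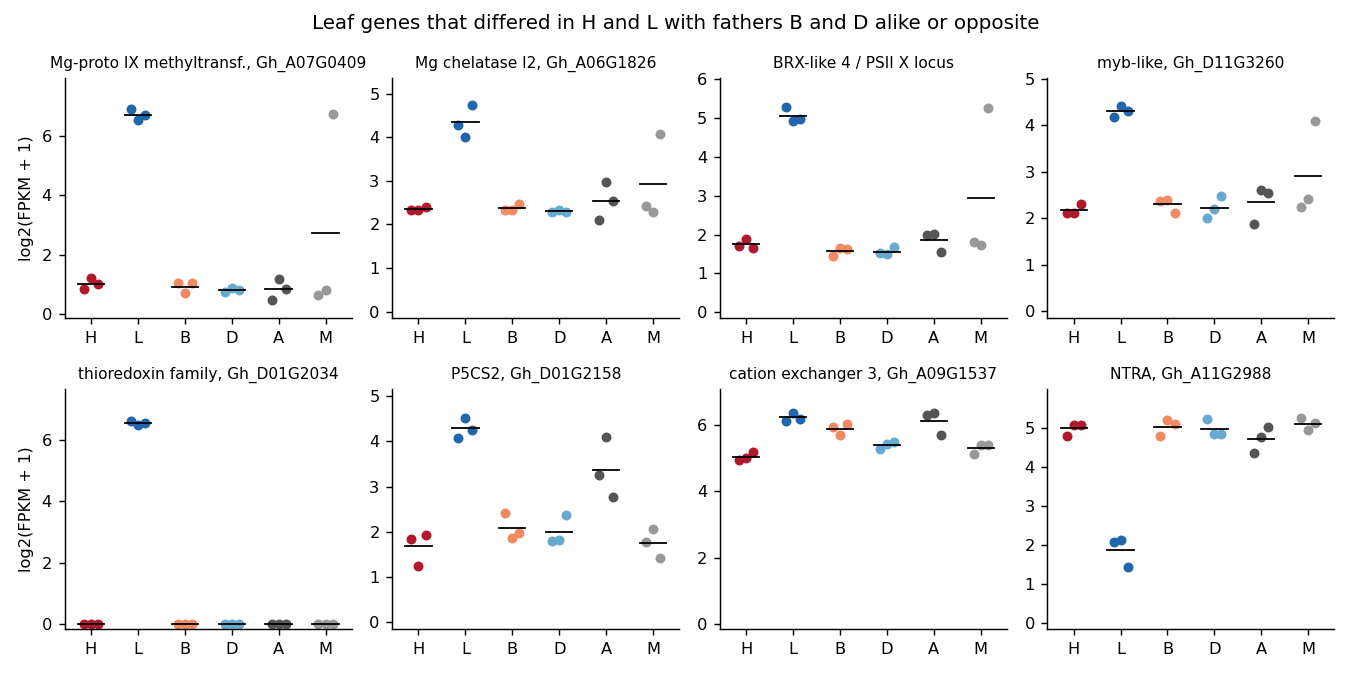
Points are single leaf libraries and bars are group means on the log2(FPKM + 1) scale (vertical axis), for 8 genes called between H and L whose paternal difference was not called. L stands apart from H, B and D in all panels but that of cation exchanger 3, downward for thioredoxin reductase and upward elsewhere. In the cation exchanger 3 panel L is highest, H is lowest, and B and D lie between them. In the upper row a single M library lies at the level of L.

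Ribosomal protein genes were higher in H on balance, with 1 call. Of 936 ribosomal protein genes tested, 722 (77.1%) were higher in H than in L on average, against 45.4% of all genes tested, and the median log2 difference was 0.30. Between the fathers the lean was the reverse, with a median of -0.26 and 14.7% of the genes higher in B, against 37.3% of all genes tested. Their summed level was 20616 to 23475 FPKM in H against 17544 to 18792 FPKM in L, and 19798 to 20380 FPKM in B against 23020 to 26058 FPKM in D. The mother A had 15540 to 20573 FPKM, so that L lay within her range, and M had 22190 to 23084 FPKM. After rescaling by median ratio or quantile normalization the medians kept their signs, at 0.31 for H minus L under both and at -0.16 and -0.18 for B minus D. By adjusted p alone 47 were higher and 1 lower in H (5.13%, against 1.37% of all genes tested, of which 366 were higher and 454 lower), and of these only Gh_D09G1428 was called, at 31.3, 31.9 and 32.1 FPKM in H against 14.4, 13 and 13.8 FPKM in L (log2 difference 1.16, SE 0.21, limma adjusted p = 0.0111). That call was lost without L replicate 2 (limma adjusted p = 0.0509).

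Few cell division genes were called. Cyclin-dependent kinase B1;2, a plant kinase active at the entry to mitosis, had log2 differences of 0.97 to 1.08 at its 3 loci, all with a limma adjusted p under 0.05. Gh_A09G0392 was called, with 4.66, 3.63 and 4.34 FPKM in H against 1.21, 1.54 and 1.62 FPKM in L, and the call was lost without H replicate 1, H replicate 3, L replicate 1 or L replicate 2 (limma adjusted p of 0.056 to 0.071). The sum of the 3 loci averaged 17.4 FPKM in H and 7.25 FPKM in L, beside 16.0 FPKM in B and 16.2 FPKM in D. The mother A averaged 12.7 FPKM, so L had the lowest mean and A lay between L and the fathers. At the uncalled loci the lowest library of A lay within the range of L. All 6 loci of histone H2A 11, a core histone made in dividing cells, had positive differences of 0.55 to 1.48, and 1 was called: Gh_D08G2019, at 20.3, 23.6 and 20.02 FPKM in H against 8.54, 7.70 and 12.8 FPKM in L, a call lost in 5 of 6 leave-outs, all but that of L replicate 3. The 92 histone genes tested as a list had a median difference of 0, with 48.9% higher in H and only that gene called. Over 207 cyclin and cell cycle kinase genes the median difference was 0.11, with 63.3% higher in H and 8 higher and 0 lower by adjusted p alone. Genes of mitochondrial respiration had no called member of 156, and at an unadjusted p under 0.05 in limma 39 were higher and 3 lower in H (26.9%, against 15.4% of all genes tested).

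Across 47 gene lists, 33 of 7803 listed genes tested were called (0.423%), 5 higher and 28 lower in H, and 23 lists had no called member in limma, though 262 of their 3631 genes were higher and 295 lower in H at an unadjusted p under 0.05, which is 15.3% beside 15.4% of all genes tested. No gene was called for the Calvin cycle and photorespiration, starch and sucrose enzymes, sugar transporters, auxin, gibberellin, cytokinin, brassinosteroid, ethylene, jasmonate, WRKY factors or NAC factors. The 557 heat shock genes and the 113 clock and light signalling genes had no called member either. Of the clock list 6 were higher and 23 lower in H at an unadjusted p under 0.05 in limma (25.7%, against 15.4% of all genes tested), and the summed level of the clock list was 651 to 684 FPKM in H against 759 to 770 FPKM in L. Floral organ markers, found by word in the descriptions, summed to 138 to 158 FPKM in H against 188 to 210 FPKM in L. Of 47 tested, 2 were called, both lower, the floral integrator Gh_D11G0883 (AGAMOUS-like 20) and Gh_A11G0343 (AGAMOUS-like 6). The 8 AGAMOUS-like 20 loci alone averaged a sum of 48.7 FPKM in H and 68.5 FPKM in L, so the list is not made of floral organ genes only. The call of Gh_A11G0343 was lost without H replicate 2, H replicate 3, L replicate 2 or L replicate 3 (limma adjusted p of 0.095 to 0.136). Seed markers summed to 283 to 890 FPKM in H against 660 to 1256 FPKM in L, with 1 of 84 called. That gene was Gh_A07G0235, the lipid-transfer family gene above, whose family description also names seed storage albumin. It was listed at 0 in H and had 68.1 to 124 FPKM in L. Pollen markers summed to 643 to 784 FPKM in H against 457 to 821 FPKM in L, with none of 58 called. What a difference in tissue makeup or sampling time contributes to the calls was not tested.

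**Figure D4:**
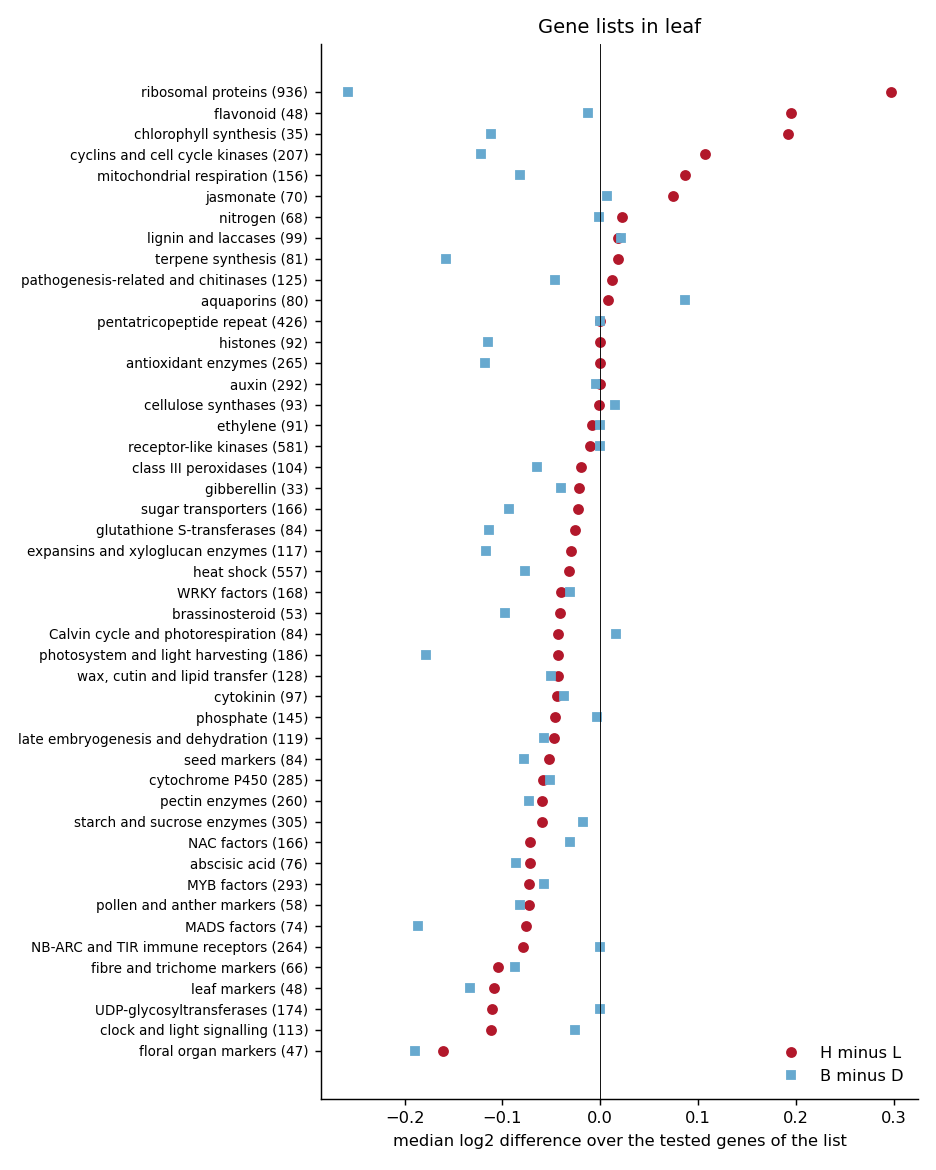
Each row is a gene list with its number of genes tested, and the horizontal axis gives the median log2 difference over the list, red circles for H minus L and blue squares for B minus D. Ribosomal proteins lie at 0.30 for H minus L and at -0.26 for B minus D, and floral organ markers are lowest for H minus L at -0.16.

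A direct test asked where H minus L differed from B minus D, and 216 genes were called (0.36%). Of them 57 were also called between H and L and 137 between B and D, with 38 in both and 99 called between B and D but not between H and L. The test runs on the log2 scale, where additive inheritance of 1 paternal allele can give a smaller difference in the hybrids than in the fathers. A call with a smaller hybrid difference therefore need not be a departure from additive inheritance. The count was 143 without H replicate 2, 138 without L replicate 2 and 125 without B replicate 2. Genes with a difference in the hybrids beyond that of the fathers included the thioredoxin reductase gene Gh_A11G2988 (3.06, SE 0.36, limma adjusted p = 0.0005) and Gh_D01G2158 of proline synthesis (-2.70, SE 0.42, limma adjusted p = 0.00699). Gh_D09G2307, an ARM repeat protein, had 6.60, 4.34 and 7.01 FPKM in H against 1.81, 1.45 and 2.13 FPKM in L, with overlapping fathers at 5.24, 3.83 and 3.11 FPKM in B against 4.65, 4.89 and 4.25 FPKM in D.

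The same contrast in other tissues separated the genes by their fathers. In flower buds 116 genes were called between H and L (0.182%), and 64 of the 296 leaf genes were among them on the same side, which is 21.6% of the leaf list and 55.2% of the bud list. All 64 belonged to the 177 genes shared with the fathers. In ovule at 1 day post anthesis 1622 genes were called (2.73%), but L ovule replicates 2 and 3 stand apart from replicate 1. With L replicate 1 alone, assumed to vary like the other groups, 258 were called (0.446%), and 71 leaf genes were among them on the same side, again all from the 177. With all 3 L ovule libraries 92 leaf genes were called on the same side, 83 of them from the 177, and 1 on the opposite side. In flower buds 170 of 174 shared genes kept the sign of leaf, against 35 of 70 genes with like fathers. In ovule these counts were 144 of 155 and 45 of 62 with all L libraries, and 146 of 155 and 27 of 59 with L replicate 1 alone. A difference of exactly 0 was counted as not keeping the sign. In all 3 tissues 54 genes were called on the same side, 22 higher and 32 lower in H. The EXS gene Gh_A09G0220 was among them, whose leaf difference of -3.29 on the log2 scale stood beside -3.25 in flower buds and -3.26 in ovule, and so was Gh_A10G1959 of the Kin17 family, with 1.84, 2.46 and 1.98. By contrast the leaf difference of Gh_A11G2988, 3.11, stood beside 0.65 in flower buds and -0.15 in ovule.

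**Figure D5:**
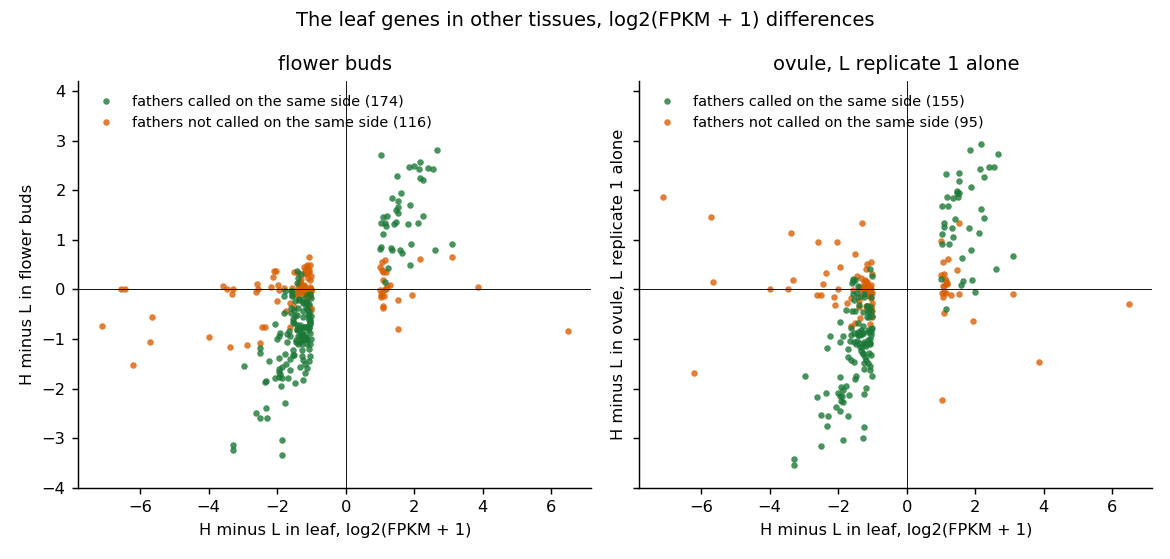
Each point is a leaf gene called between H and L, with its leaf difference on the horizontal axis and its difference in flower buds (left) or ovule with L replicate 1 alone (right) on the vertical axis, all as H minus L of log2(FPKM + 1). Green points, with the fathers called on the same side, keep the sign of leaf in 170 of 174 cases in flower buds and 146 of 155 in ovule, while orange points scatter on both sides of 0.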

How the data were processed

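RNA of leaf, flower buds and ovule from 7 genotypes was sequenced by the authors on an Illumina platform, with 3 libraries per genotype and tissue. The FPKM values were made by the authors before deposit: after adapter removal by Cutadapt and alignment by HISAT, transcripts were assembled in StringTie, and levels were computed in StringTie and Ballgown. For the genome build, no name was given in the sources used. The deposited values were used unscaled, and 21 further FPKM columns that match no sample were not used.

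In leaf, 60031 of 80325 genes exceeded 0.5 FPKM in at least 1 library. Log2(FPKM + 1) was fitted with limma 3.58.1 (R 4.3.3; empirical Bayes with trend and robust options) over the 21 leaf libraries. A gene was called at a Benjamini-Hochberg adjusted p under 0.05 and an absolute log2 difference above 1. A pseudocount of 1 understates changes of low genes. The contrasts H minus L, B minus D and their difference came from the same fit, and flower buds and ovule were fitted separately. The fit was tested on simulated data. Libraries of 1 genotype are separate pools of leaves, so p-values cover only the spread among these pools, which may be partly technical.

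Named genes were the largest changes in each direction with a description, by paternal class, per gene list, among on/off genes and among genes called in all 3 tissues, with exceptions stated in the text. The comparison, genes and 47 lists were chosen with earlier results of these data known. Alternatives were another pseudocount, filter, normalization, set of libraries, a replicate block and leaving out each library.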

Additional observations from a re-analysis of the deposited data

Results flagged for a closer look

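The difference between the hybrids was set against that between their fathers by a direct test in the 21-library fit, limma's contrast of (H minus L) minus (B minus D). It called 216 genes in leaf, and 57 of the genes called between H and L were among them. Among the genes with a description that were also called between H and L, the most negative values were -6.54 for Gh_D01G2034, -6.43 for Gh_A07G0235 and -3.37 for Gh_D05G1002, in units of log2(FPKM + 1). These 3 genes were listed at 0 in every leaf library but those of L, so the values depend on the pseudocount and are no bounds. With only the 6 H and L libraries in the fit, H minus L of these 3 genes had limma adjusted p of 6.48e-06, 0.000625 and 0.00065.

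Gh_A11G1881, a BRICK1-like gene of the complex that nucleates actin, had a difference of -2.91. It stood at 0, 0 and 0.0555 FPKM in H against 8.61, 3.20 and 9.58 FPKM in L. The other BRICK1 locus, Gh_D11G2090, was not called and was uneven within genotypes. It had 8.71, 0 and 0 FPKM in L, 0 to 11.6 FPKM in D and up to 11.5 FPKM in M. How reads were shared between the copies is not known. Gh_D01G2158 of proline synthesis had -2.70, Gh_D09G2307 (ARM repeat) had 1.47 and Gh_A11G2988 (thioredoxin reductase) had 3.06.

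In 3 genes the hybrids differed on the side of their fathers but by less on the log2 scale. Additive inheritance of 1 paternal allele can give a smaller difference on that scale, and whether these genes depart from it was not tested. Gh_A04G0855, an uncharacterised hydrolase-like protein, had a difference of 1.54, with 2.87, 3.56 and 3.29 FPKM in H against 9.97, 7.04 and 7.01 FPKM in L, and 0.256, 0.281 and 0.289 FPKM in B against 5.64, 8.41 and 6.55 FPKM in D. Without L replicate 1 its log2 difference of H and L was -0.92, short of a call. Gh_D01G0078, a cyclase family protein, had 1.79, and its call between H and L was lost in each of the 6 leave-outs (limma adjusted p of 0.055 to 0.157). Gh_Sca005280G01, an ankyrin repeat protein, had 2.27, with 18.8, 26.0 and 15.3 FPKM in H against 41.9, 65.7 and 59.8 FPKM in L, and 5.19, 5.49 and 4.87 FPKM in B against 86.9, 90.8 and 65.1 FPKM in D. Its call between H and L was lost without H replicate 3 or L replicate 2 (limma adjusted p of 0.060 and 0.061). These 3 genes were picked for their values.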

How the results depend on the processing

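No alternative turned the direction of a named gene. Quantile normalization moved the median log2 difference of all genes to 0.0133 for H minus L (-0.0137 as reported) and to 0.00625 for B minus D (-0.0731). With a pseudocount of 0.1 the genes higher in H numbered 127 and with quantile normalization 106 (68 as reported), so that 31.6% and 30.9% of the calls were higher in H, against 23.0%. The pseudocount of 0.1 also gave 2299 genes at the thresholds of the study (908 as reported), 1890 between B and D (1094) and 67 listed genes (33). With only the libraries of each contrast in the fit, 114 genes were called on the same side in both contrasts (177) and 542 where H minus L differed from B minus D (216). Leaving out 1 library gave 142 to 218 genes lower in H, 58 to 76 higher in H, 201 to 281 in all, 660 to 1213 between B and D, 137 to 168 shared with the fathers and 125 to 242 for the difference of the contrasts. With a pseudocount of 0.1, 253 of the 296 genes were among the 402 called. Deviations of libraries with the same replicate number had r of 0.050, 0.032 and 0.0053 for H and L. The second principal component of the 6 libraries (19.5% of the variance) placed replicate 1 at 43.9 in H and 64.9 in L. It placed replicate 2 at -28.0 in H and -29.1 in L, and replicate 3 at -0.0657 in H and -51.7 in L. Whether the numbers pair the libraries is not settled by these values. A fit with the replicate block called 284 genes, 66 higher and 218 lower in H, and 4 of 6 H and L libraries correlated best with their own number. Of 85 named genes, 47 stayed on their side of the thresholds in every alternative. Depth and counting error are unknown, and values listed at 0 limit genes near 0.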
